A study of Rattus norvegicus with 12 samples.

Results

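Huntingtin and 8 genes known for their ties to it were followed in PC12, a cell line from a rat tumour of adrenal chromaffin cells. The genes were Htt, Hap1, Hip1, Hip1r, Pacsin1, Crebbp, Tbp, Sp1 and Ppargc1a, taken by name. Each was read from the array feature that carries its symbol alone, and all 9 had exactly 1 such feature among the 68842 features that are not controls. The features of 8 genes passed a filter on low signal, and that of Ppargc1a did not. The line can be induced to express the exon-1 part of huntingtin with 74 glutamines, tagged with GFP, and serves to model Huntington disease in culture. Total RNA was hybridised to 12 Affymetrix rat transcriptome arrays in 4 groups of 3: induced cells with compound 6, induced cells with compound 3, induced cells with the vehicle DMSO, and non-induced cells with DMSO. Each compound, an analogue of guanabenz by the series title, was given at 10 µM for 48 h, and induction was by doxycycline at 1 µg/ml. Non-induced cells had no doxycycline, so the fragment and its inducer cannot be told apart, and all 4 groups are 1 line that carries the transgene.

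Huntingtin is a very large scaffold protein of vesicle transport, and a long glutamine tract in its first exon causes Huntington disease. Its known partners fall into transport and endocytic adaptors on one side and transcription proteins on the other. Hap1 joins huntingtin to microtubule motors, Hip1 and Hip1r bind clathrin and actin during endocytosis, and Pacsin1 bends membranes at sites of vesicle uptake. Crebbp is a histone acetyltransferase, Tbp binds the TATA box, and Sp1 binds GC-rich promoter elements. Ppargc1a encodes the mitochondrial coactivator PGC-1α, which is known less as a binding partner than as a gene whose transcription mutant huntingtin lowers in neurons.

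The sequences before 3 of the genes show where the DNA elements of the transcription partners lie, and they are shown because Hap1 and Hip1r were the members that differed between groups and Htt is the gene of the model. They are the 250 bases before the annotated start, from RefSeq on GRCr8, read 5′ to 3′ along the gene. Capitals mark GGGCGG or its reverse complement CCGCCC (the GC box that Sp1 binds), TGACGTCA (the cAMP response element, through which Crebbp is recruited, and the same on both strands) and TATAAA or its reverse complement TTTATA (the TATA box). All lie on the minus strand, at chr14:80219669-80219918 for Htt, chr10:85786504-85786753 for Hap1 and chr12:38279655-38279904 for Hip1r.
Htt: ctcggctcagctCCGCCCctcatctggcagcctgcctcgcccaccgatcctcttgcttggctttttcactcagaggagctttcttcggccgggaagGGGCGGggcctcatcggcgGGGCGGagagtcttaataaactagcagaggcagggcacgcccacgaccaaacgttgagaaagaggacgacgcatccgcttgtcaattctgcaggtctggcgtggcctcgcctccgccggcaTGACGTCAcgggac
Hap1: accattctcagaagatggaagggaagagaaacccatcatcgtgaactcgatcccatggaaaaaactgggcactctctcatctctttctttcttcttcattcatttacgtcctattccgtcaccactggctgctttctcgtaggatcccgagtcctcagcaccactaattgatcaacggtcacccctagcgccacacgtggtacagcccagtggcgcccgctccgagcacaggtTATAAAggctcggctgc
Hip1r: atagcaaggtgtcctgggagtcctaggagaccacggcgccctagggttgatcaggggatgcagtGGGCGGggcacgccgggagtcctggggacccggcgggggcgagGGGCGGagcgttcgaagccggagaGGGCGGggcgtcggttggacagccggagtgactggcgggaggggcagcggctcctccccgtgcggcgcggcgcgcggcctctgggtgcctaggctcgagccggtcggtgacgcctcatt

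The 3 sequences differed in what they held. The Htt sequence had 3 GC boxes and 1 cAMP response element, the Hip1r sequence had 3 GC boxes, and the Hap1 sequence had 1 TATA box. Of the 9 genes 8 had such a sequence in the table, with 2 overlapping ones for Hip1, and Pacsin1 had none. A GC box was present for 6 genes (Htt, Hip1, Hip1r, Crebbp, Tbp and Sp1) and in 30.5% of 33469 sequences of the same length before rat genes. For Hip1 it was in 1 of the 2 sequences only. The 8 genes with a sequence are counted by gene, while the shares are of sequences, which came from 27457 genes. G and C made up 61.2% (Hip1) to 82.0% (Crebbp) of the sequences of the 6 genes with a GC box. They made up 52.0% for Hap1 and 50.4% for Ppargc1a. The part of base composition in these counts was not tested. A cAMP response element was present for Htt and Ppargc1a and in 1.59% of all sequences, and a TATA box for Hap1 and in 12.9%. In the Crebbp sequence, which had 3 GC boxes, the first 2 overlap. A match describes the letters alone, and binding was not measured.

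**Figure D1:**
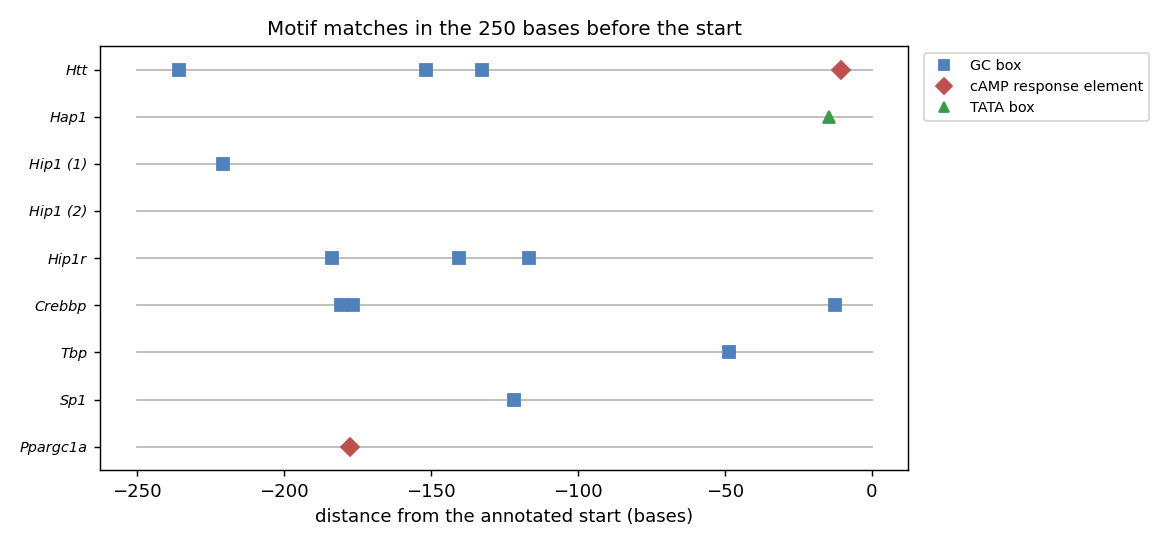
Positions of the motif matches in the 250 bases before the annotated start of each gene, with the distance from the start in bases on the horizontal axis and 1 line per sequence. Squares are GC boxes, diamonds cAMP response elements and triangles TATA boxes. GC boxes stand before 6 genes, and the cAMP response element of Htt lies 14 to 7 bases before the start.

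The deposited values are log2 summaries, so a difference of 1 is a doubling of signal, and the median standard error of a difference over 34422 features past the filter was 0.07. Array medians lay between 4.6 and 4.7, and the 95th percentile of features was 10.18 to 10.27 with compound 6, 10.20 to 10.27 with compound 3 and 10.09 to 10.32 with DMSO after induction, against 10.29 to 10.32 on non-induced arrays. All 7 measured chromaffin markers passed the filter, with medians between 7.16 (Dbh) and 12.3 (Chgb). Of these 7, 5 were called lower with compound 6, 7 with compound 3 and 6 with DMSO after induction, each against non-induced cells. The shares of all features called lower, at a limma adjusted p under 0.05, were 4.1%, 6.82% and 4.86%. Median differences of the 7 markers were -0.74, -1.35 and -0.98, and the part of this in the values below was not tested. Of 17 markers of fibroblasts, glia, leukocytes and adrenal cortex, 15 were on the array and 9 passed the filter, and 0 of these 9 changed in any of the 6 comparisons (limma, 0 at an unadjusted p under 0.05 too). Of the fibroblast markers Col1a1 and Col1a2 passed the filter (medians 6.3 and 6.09) while Dcn, Lum and Pdgfra lay under it. Of the leukocyte markers Cd68 passed (median 5.52) while Ptprc, Aif1 and Itgam lay under it. All measured glial markers passed, with medians of 4.87 (S100b), 5.545 (Sox10) and 4.845 (Gfap). So did all measured adrenal cortex markers, at 5.18 (Star), 4.81 (Cyp11a1) and 5.935 (Nr5a1). Below, a gene changed where limma gave it an adjusted p under 0.05 by Benjamini and Hochberg's method, over all features past the filter. Replicates carry numbers only, with no word on separate cultures, so p-values rest on the spread between samples that may differ only technically. In bulk RNA, fewer cells with a transcript and less transcript per cell cannot be told apart.

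Htt itself (transcript cluster TC1400002083.rn.1) did not pass in any comparison. Its level was 7.81, 7.81 and 7.91 log2 units with compound 6, 7.79, 7.87 and 8.22 with compound 3, 7.76, 7.95 and 7.88 with DMSO after induction, and 7.77, 7.66 and 7.85 in non-induced cells. The ranges of all 4 groups overlapped, and compound 3 array 3 was the single array above 8. Among the 9 genes Htt had the highest SD within a group, 0.23 on the compound 3 arrays, against 0.06 on the compound 6 arrays and 0.10 in both DMSO groups. After induction it lay 0.10 ± 0.10 (SE) log2 units above non-induced cells, with a 95% interval of -0.12 to 0.32 (limma adjusted p = 0.615). The feature belongs to the rat gene and is no check of induction, since binding of its probes to the transgene's RNA was not tested.

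Hap1 (TC1000003791.rn.1), the transport adaptor, was lower with compound 3 than in non-induced cells. Its level was 9.09, 9.01 and 9.02 with compound 6, 8.94, 8.94 and 8.85 with compound 3, 9.12, 9.08 and 9.16 with DMSO after induction, and 9.08, 9.15 and 9.19 in non-induced cells. Every compound 3 array lay below every other array. Against non-induced cells Hap1 fell by 0.23 ± 0.05 log2 units with compound 3, a fold of 0.853 (95% interval -0.34 to -0.12, limma adjusted p = 0.00758). Against DMSO in induced cells the compound 3 difference was -0.21 ± 0.05 (95% interval -0.32 to -0.10), with an unadjusted p of 0.00117 and a limma adjusted p of 0.269, which did not pass. Induction alone left Hap1 at -0.02 ± 0.05 (limma adjusted p = 0.863), a sign that turned after quantile normalisation (0.01) and cyclic loess (0.00), and compound 6 placed it at -0.10 ± 0.05 relative to non-induced cells (limma adjusted p = 0.303).

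Hip1r (TC1200001546.rn.1), the actin-binding relative of Hip1, was lower with each compound than in non-induced cells. It stood at 7.70, 7.67 and 7.63 with compound 6, at 7.67, 7.66 and 7.66 with compound 3, at 7.69, 7.75 and 7.84 with DMSO after induction, and at 7.87, 7.91 and 7.91 in non-induced cells. All 9 induced arrays lay below the 3 non-induced ones, and the compound 3 arrays lay below the induced DMSO arrays. Hip1r fell by 0.23 ± 0.05 with compound 6 (fold 0.853, limma adjusted p = 0.0120) and by 0.23 ± 0.05 with compound 3 (fold 0.851, limma adjusted p = 0.00527), both against non-induced cells. Leaving out non-induced array 3 ended the compound 6 call (limma adjusted p = 0.0544). With induction alone the difference was -0.14 ± 0.05 (95% interval -0.24 to -0.03) with an unadjusted p of 0.0131 and a limma adjusted p of 0.101. That value passed with a filter at the 75th percentile, after median scaling, after cyclic loess, with array weights and without induced DMSO array 3, with adjusted p values between 0.0263 and 0.0467.

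Hip1, the clathrin adaptor itself, did not pass anywhere. Its level was 7.76, 7.72 and 7.67 with compound 6, 7.54, 7.62 and 7.69 with compound 3, 7.52, 7.68 and 7.70 with DMSO after induction, and 7.62, 7.65 and 7.65 in non-induced cells. The compound 6 arrays lay above the non-induced ones without overlap, at a difference of 0.08 ± 0.06 (95% interval -0.05 to 0.20, limma adjusted p = 0.542). Groups failed to overlap in the same comparison in 27.3% of all features. With induction alone Hip1 lay at -0.01 ± 0.06 (limma adjusted p = 0.965), and its sign turned with array weights (0.02).

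Pacsin1, the membrane-bending partner, had its lowest group mean with compound 3. It read 8.15, 8.06 and 8.05 with compound 6, 7.90, 7.96 and 7.99 with compound 3, 7.98, 8.11 and 8.16 with DMSO after induction, and 8.06, 8.05 and 8.14 in non-induced cells. The compound 3 arrays overlapped only the first induced DMSO array, and lay below every compound 6 and every non-induced array. Against induced DMSO the compound 3 difference was -0.13 ± 0.06 (95% interval -0.26 to -0.01), with an unadjusted p of 0.0372 and a limma adjusted p of 0.642. Means with DMSO were the same to 2 decimals before and after induction, at 8.08, with a 95% interval of -0.12 to 0.12 for the difference.

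**Figure D2:**
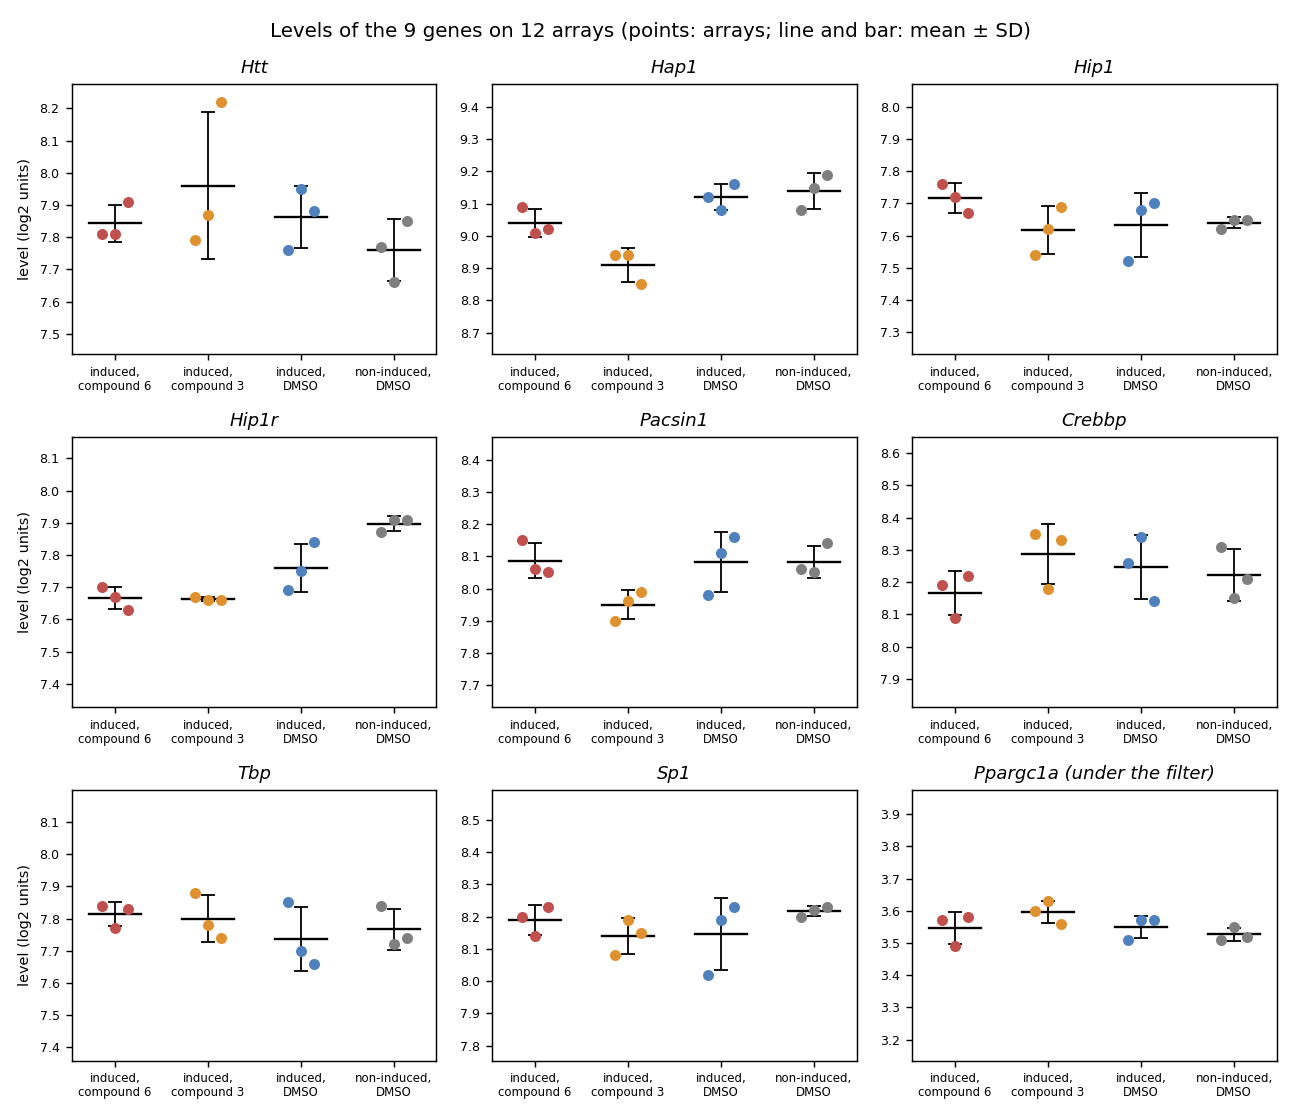
Log2 level of each of the 9 genes on the 12 arrays, with groups from left to right as induced with compound 6, induced with compound 3, induced with DMSO and non-induced with DMSO. Points are arrays, horizontal lines group means and bars the SD (n = 3), and every panel spans the same range of log2 units around that gene's mean. Hip1r is above 7.84 on non-induced arrays only, and Hap1 is lowest on the compound 3 arrays.

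The genes of the transcription partners Crebbp, Tbp and Sp1 did not pass in any comparison. Crebbp, the acetyltransferase, had 8.19, 8.09 and 8.22 with compound 6, 8.35, 8.18 and 8.33 with compound 3, 8.26, 8.34 and 8.14 with DMSO after induction, and 8.31, 8.15 and 8.21 in non-induced cells. Its groups overlapped in all 6 comparisons, and the difference after induction was 0.02 ± 0.07 (95% interval -0.13 to 0.18, limma adjusted p = 0.892), a sign that turned after median scaling (-0.01). Tbp, the TATA-binding subunit of TFIID, had 7.84, 7.77 and 7.83 with compound 6, 7.88, 7.78 and 7.74 with compound 3, 7.85, 7.70 and 7.66 with DMSO after induction, and 7.84, 7.72 and 7.74 in non-induced cells. Array 1 was the highest Tbp array in each of the 4 groups, and Tbp lay at -0.03 ± 0.06 after induction (95% interval -0.16 to 0.10, limma adjusted p = 0.834).

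Sp1, the GC-box factor, was tightly grouped in non-induced cells. Its level was 8.20, 8.14 and 8.23 with compound 6, 8.08, 8.19 and 8.15 with compound 3, 8.02, 8.19 and 8.23 with DMSO after induction, and 8.20, 8.22 and 8.23 in non-induced cells. The SD was 0.11 with DMSO after induction, where array 1 lay lowest, and 0.02 in non-induced cells. Hip1, Hip1r and Ppargc1a also had an SD of 0.02 in non-induced cells. Induction left Sp1 at -0.07 ± 0.06 (95% interval -0.20 to 0.06, limma adjusted p = 0.548), and at -0.01 without induced DMSO array 1. Compound 3 arrays lay just below the non-induced ones without overlap, at -0.08 ± 0.06 (limma adjusted p = 0.502).

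Ppargc1a lay under the filter of 4.63 log2 units. Its values ran from 3.49 to 3.63 over the 12 arrays, and its group means were 3.55 with compound 6, 3.60 with compound 3, 3.55 with DMSO after induction and 3.53 in non-induced cells. The array's 23 antigenomic background features ran from 1.40 to 7.95, and 11 of them had a mean above that of Ppargc1a, so the feature was not separated from background. The highest background value, 7.95, also lay above the 12-array means of Htt (7.86), Hip1 (7.65), Hip1r (7.75) and Tbp (7.78). Background features above these genes were not counted, so passing the filter does not show separation from background. In a limma fit of all features the Ppargc1a difference after induction was 0.02 ± 0.05 (95% interval -0.09 to 0.13, adjusted p = 0.898). Compound 3 arrays lay above the non-induced ones without overlap, at 0.07 ± 0.05 (adjusted p = 0.630 in the same limma fit). Groups failed to overlap in that comparison in 30.3% of features past the filter. With a feature not separated from background, these values do not show whether the Ppargc1a transcript changed.

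Induction of the fragment against no induction, both in DMSO, changed 0 of the 8 genes past the filter, with 1 (Hip1r) at an unadjusted p under 0.05 in limma. Over all features 9.06% changed in that comparison (4.2% higher and 4.86% lower) and 21% had an unadjusted p under 0.05. The differences of the 8 genes ran from -0.14 (Hip1r) to 0.10 (Htt), with a median of -0.01, against 0.01 over all features. Their 95% intervals together spanned -0.24 to 0.32. Hip1r was the 1 gene whose induced and non-induced DMSO arrays did not overlap, as in 22.7% of all features.

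Within induced cells, 0 of the 8 genes passed with either compound against DMSO. Compound 6 against DMSO changed 0 of 8, with 0 at an unadjusted p under 0.05 in limma, where 0.00291% of all features changed and 5.66% had such a p. Its arrays overlapped those of DMSO for all 8 genes, where 8.04% of all features had no overlap. Compound 3 against DMSO changed 0 of 8, with 2 (Hap1 and Pacsin1) at an unadjusted p under 0.05, where 0.0232% of all features changed and 7.29% had such a p. The groups of compound 3 and DMSO did not overlap for Hap1 and Hip1r, as in 9.94% of all features. Both comparisons use the same 3 DMSO arrays, so their values are not independent. The 95% intervals of the 8 genes spanned -0.24 to 0.21 for compound 6 and -0.32 to 0.32 for compound 3, both bounds for compound 3 being those of Hap1 and Htt.

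The analogues were given at the same dose and time, so they could be compared directly, as the 1 pair of compounds in the study. Compound 6 against compound 3 changed 0 of 8 genes, with 2 (Hap1 and Pacsin1) at an unadjusted p under 0.05 in limma, where 0.0436% of all features changed and 8.14% had such a p. The Hap1 difference was 0.13 ± 0.05 (95% interval 0.02 to 0.24, limma adjusted p = 0.473). That of Pacsin1 was 0.14 ± 0.06 (95% interval 0.01 to 0.26, limma adjusted p = 0.551). In both genes the compound 6 and compound 3 arrays did not overlap, as in 14% of all features. Hip1r was nearly level, at 0.00 ± 0.05 (95% interval -0.10 to 0.11), and Htt had the widest interval, -0.34 to 0.10 around -0.12. These intervals do not show that the compounds act alike.

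Each compound group was also set against non-induced cells, comparisons that share the 3 non-induced arrays and that hold induction as well as compound. With compound 6, 1 of 8 genes (Hip1r, lower) changed, or 12.5%, against 7.68% of all features (3.58% higher and 4.1% lower). The same 1 gene had an unadjusted p under 0.05, as did 19.2% of all features. With compound 3, 2 of 8 (Hap1 and Hip1r, both lower) changed, or 25%, against 15.2% of all features (8.34% higher and 6.82% lower). With Pacsin1, 3 genes had an unadjusted p under 0.05, as did 25.8% of all features, and with Pacsin1 and Sp1, 4 genes had no overlap, as did 30.3%. With so few genes these shares were not set apart from the background by any test. In the F-test of limma for any difference among the 4 groups, Hip1r (F = 11.1, adjusted p = 0.0167) and Hap1 (F = 9.19, adjusted p = 0.0287) passed, 2 of 8 against 10.3% of all features, and the same 2 had an unadjusted p under 0.05, against 21.7%. Leaving out non-induced array 2 or 3, or using no filter, left 0 of these calls, and leaving out any 1 compound 3 array or blocking on the replicate number left that of Hip1r alone. When the 4 groups were ordered by mean for each of the 9 genes, 0 of 27 pairs of neighbouring groups changed. Neighbours were picked from these same values, and pairs of Ppargc1a, under the filter, could not be called, so this count is no test. For Hap1 and Hip1r the order of means, from low to high, was compound 3, compound 6, induced DMSO and non-induced DMSO. The Hip1r difference of compound 6 from compound 3 was only 0.003, and it turned sign without compound 6 array 1 (-0.013). The Hap1 difference after induction was only -0.02, and it turned sign in 3 of 21 alternatives.

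**Figure D3:**
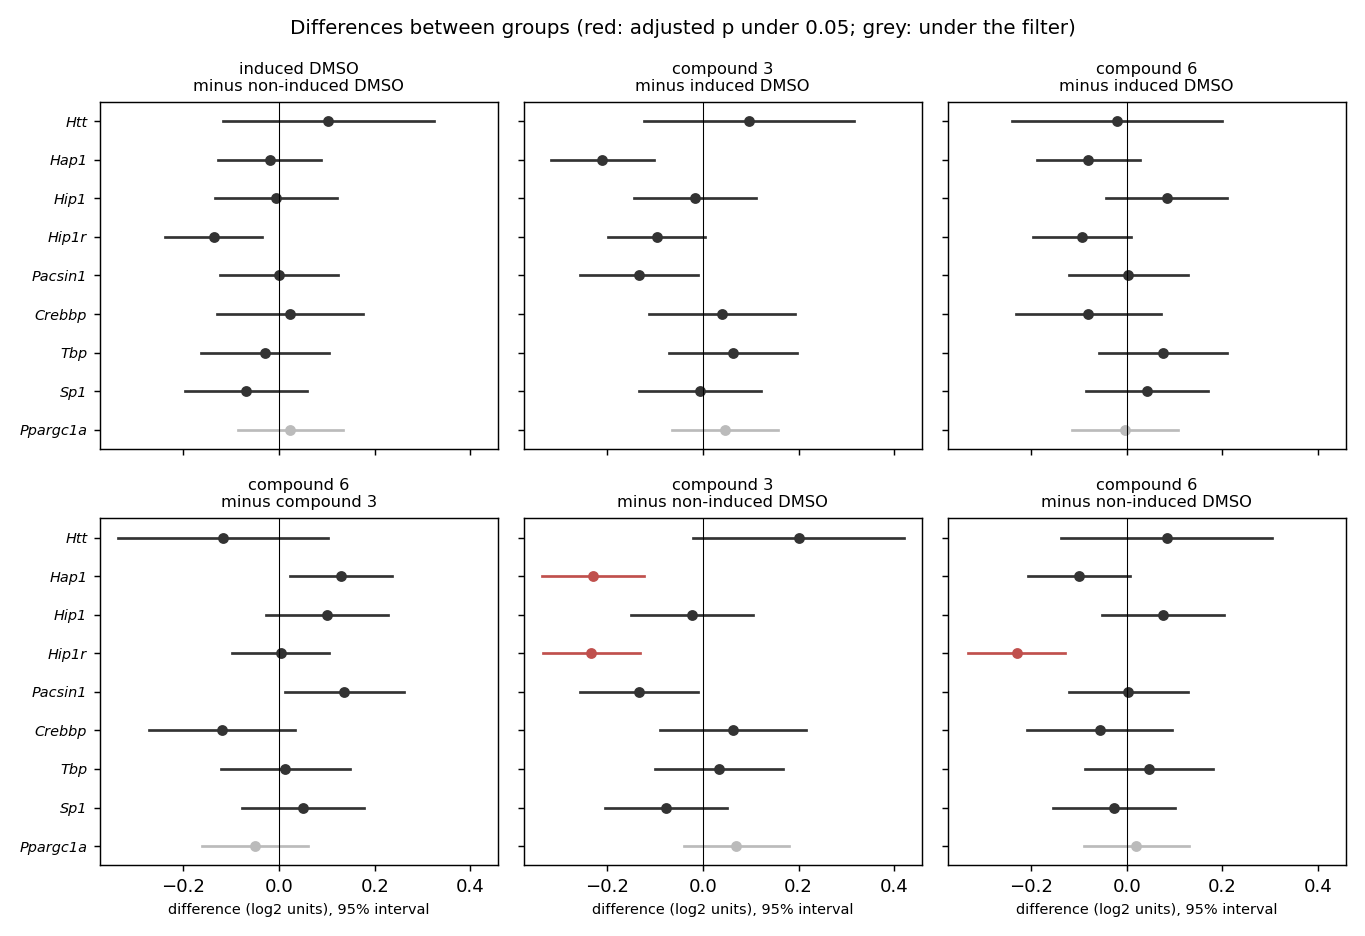
Differences in log2 units for the 9 genes in the 6 comparisons, each as the first group minus the second, with 95% intervals from limma. Red marks an adjusted p under 0.05 and grey the feature under the filter. Hap1 and Hip1r with compound 3 and Hip1r with compound 6, each against non-induced cells, are the 3 red entries.

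Beyond the 9 genes, 98 further genes of the same protein networks were put into 5 lists from general knowledge, of which 93 were on the array and 91 passed the filter. In induced against non-induced DMSO cells 9 rose and 1 fell, or 11% of 91, near the 9.06% of all features. With compound 6 against non-induced cells 9 rose and 2 fell (12.1%, against 7.68%), and with compound 3 against non-induced cells 15 rose and 2 fell (18.7%, against 15.2%). Without 1 array the induction count of 10 fell to 5 (non-induced array 2 or induced DMSO array 2) or 6 (array 3 of either group). The compound 6 count of 11 fell to 3, 4, 6 or 7 without non-induced array 3, compound 6 array 2, compound 6 array 3 or non-induced array 2. The compound 3 count of 17 fell to 11 without non-induced array 2 or 3. Between the compounds, and for either compound against DMSO in induced cells, 0 changed in limma, with 9 of 91 at an unadjusted p under 0.05 for compound 6 against compound 3 (9.89%, against 8.14% of all features), 2 for compound 6 (2.2%, against 5.66%) and 4 for compound 3 (4.4%, against 7.29%).

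Of 19 other huntingtin partners past the filter, 3 rose and 1 fell after induction, or 21.1%, against 9.06% of all features (median 0.03, against 0.01). With 19 genes this share was not set apart from the background by any test. Casp6, a caspase that cleaves huntingtin, was at 6.87, 6.96 and 7.01 in induced DMSO cells, against 6.59, 6.58 and 6.47 in non-induced cells, and rose by 0.40 ± 0.06 (fold 1.32, limma adjusted p = 0.00115). Sh3gl3, an endophilin that binds the huntingtin proline-rich region, was at 8.28, 8.18 and 8.24, against 8.65, 8.57 and 8.59, and fell by 0.37 ± 0.06 (fold 0.774, limma adjusted p = 0.00338). Both calls held in all 21 alternatives. The vesicle-transport adaptor Optn and the kinase Cdk5 rose by 0.22 and 0.18 (limma adjusted p = 0.0185 and 0.0238), and each of these calls was lost in 8 of 21 alternatives. Against non-induced cells Optn was 0.47 ± 0.05 higher with compound 3 (limma adjusted p = 0.000120) and 0.24 ± 0.05 higher with compound 6 (limma adjusted p = 0.0137, lost without compound 6 array 3 at 0.0567), and the palmitoyltransferase Zdhhc13 rose by 0.20 with compound 3 (limma adjusted p = 0.00965). After induction alone Zdhhc13 lay at 0.15 (limma adjusted p = 0.0640), which did not pass.

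In the clathrin endocytosis list, where Hip1, Hip1r and Pacsin1 act, 2 of 25 genes rose and 0 fell after induction, or 8%, near the 9.06% of all features (median 0.05, against 0.01). Dnm3, a dynamin that pinches off vesicles, was at 6.72, 6.73 and 6.71 in induced DMSO cells, against 6.49, 6.33 and 6.35 in non-induced cells. It rose by 0.33 ± 0.06 after induction (limma adjusted p = 0.00639), and against non-induced cells by 0.46 ± 0.06 with compound 6 (limma adjusted p = 0.00202) and 0.55 ± 0.06 with compound 3 (limma adjusted p = 0.000172). The 3 Dnm3 calls held in all 21 alternatives. Necap1, an endocytic adaptor of clathrin coats, rose by 0.15 after induction (limma adjusted p = 0.0452, lost in 15 of 21 alternatives). Against non-induced cells Wasl, an activator of actin assembly, was 0.21 higher with compound 6 (limma adjusted p = 0.0483, lost in 14 of 21). With compound 3 the same difference was 0.19 (limma adjusted p = 0.0430, lost in 12 of 21). Against DMSO in induced cells Wasl lay at 0.03 with compound 6 and 0.02 with compound 3, neither called. Induction alone placed Wasl at 0.17 (limma adjusted p = 0.0871), which did not pass. Of 9 Hap1 partners and transport genes 0 changed after induction, against 9.06% of all features, with 4 at an unadjusted p under 0.05 in limma (44.4%, against 21%). With compound 6 against non-induced cells 1 of these 9, the kinesin heavy chain Kif5b, fell by 0.20 (limma adjusted p = 0.0410, lost in 12 of 21), or 11.1%, against 7.68% of all features. After induction alone Kif5b lay at -0.14 (limma adjusted p = 0.134), which did not pass.

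Among 21 genes of the transcription partners 2 rose and 0 fell after induction, or 9.52%, near the 9.06% of all features (median 0.03, against 0.01). Gtf2a1, a TFIIA subunit that stabilises Tbp on the TATA box, was at 9.02, 9.10 and 9.0 in induced DMSO cells, against 8.71, 8.81 and 8.82 in non-induced cells, and rose by 0.26 ± 0.05 (limma adjusted p = 0.00638, lost in 1 of 21 alternatives). Taf12, a TFIID subunit, rose by 0.21 ± 0.05 (limma adjusted p = 0.0155, lost in 5 of 21). With compound 3 against non-induced cells 4 of the 21 rose and 1 fell, or 23.8%, against 15.2% of all features. The acetyltransferase Kat2b rose by 0.33 (limma adjusted p = 0.0100), Gtf2b, which bridges Tbp and the polymerase, rose by 0.22 (limma adjusted p = 0.0204, lost in 7 of 21), and the corepressor Sin3a fell by 0.30 (limma adjusted p = 0.00588). After induction alone Kat2b lay at 0.23, Gtf2b at 0.11 and Sin3a at -0.20 (limma adjusted p = 0.0775, 0.307 and 0.0665), none called.

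In the list of PGC-1α partners and targets 2 of 17 genes rose and 0 fell after induction, or 11.8%, against 9.06% of all features (median 0.00, against 0.01), while Ppargc1a itself lay under the filter. Sod2, the mitochondrial superoxide dismutase, was at 9.04, 9.23 and 9.20 in induced DMSO cells, against 8.83, 8.87 and 8.83 in non-induced cells, and rose by 0.31 ± 0.06 (fold 1.24, limma adjusted p = 0.00672, held in all 21 alternatives). Gpx1, a glutathione peroxidase, rose by 0.34 ± 0.08 (limma adjusted p = 0.0218, lost in 6 of 21). With compound 3 against non-induced cells 4 of the 17 were called, or 23.5%, against 15.2% of all features. Among them the mitochondrial transcription factor Tfb2m rose by 0.36 ± 0.06 (limma adjusted p = 0.00168). Tfb2m was at 8.30, 8.26 and 8.24 in induced DMSO cells, against 8.21, 8.10 and 7.96 in non-induced cells. With compound 6 against non-induced cells 3 of the 17 were called (17.6%, against 7.68%). Among these the fatty-acid receptor Ppara rose by 0.22 ± 0.05 (limma adjusted p = 0.0163, lost in 4 of 20). Ppara was at 5.95, 5.97 and 6.03 in induced DMSO cells, against 5.88, 5.88 and 5.83 in non-induced cells.

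**Figure D4:**
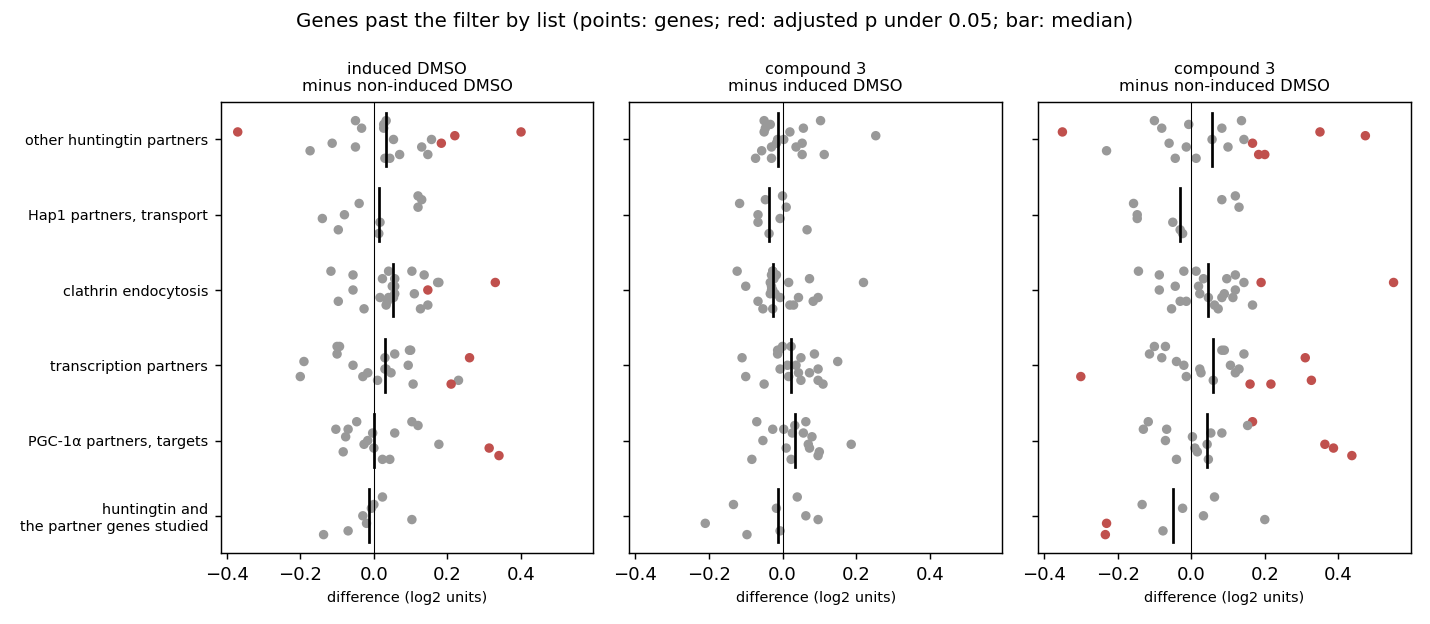
Differences in log2 units of the genes past the filter in the 5 partner lists and, in the lowest row, of 8 of the 9 genes studied, for induction alone, compound 3 against DMSO and compound 3 against non-induced cells. Points are genes, red points have an adjusted p under 0.05 and bars are medians. In the comparison of compound 3 with DMSO 0 points are red.

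The genes whose levels ran most like those of a member over the 12 arrays were sought among 15312 genes past the filter. For Htt they were Zzef1 (Pearson r = 0.951), Nbea (r = 0.943) and Utrn (r = 0.931), and 198 genes had an r over 0.8. For Hip1r, the member with the smallest p in the F-test, they were the nuclear lamina gene Lmna (r = 0.985), C3h11orf96 (r = 0.977) and Ypel2 (r = 0.967), and 519 genes had an r over 0.8. These correlations describe arrays that share groups and scaling, no p is given for them, and the tests of genes chosen in this way would restate the choice.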

How the data were processed

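The authors deposited log2 expression summaries per transcript cluster of the Affymetrix rat array, made with Affymetrix Expression Console and RMA per the submitters' processing notes, which give no versions. RMA scales arrays to 1 distribution, which can hide a shift shared by most transcripts. Of 70580 features, 1738 controls were left out and 34422 with a mean over 12 arrays of at least 4.63, the median of feature means, were kept. Symbols came from the platform annotation, replaced by the RefSeq symbol where the Entrez gene number matched. A model of 4 group means was fitted with limma 3.58.1 in R 4.3.3, whose residual degrees of freedom were 8, with 3.27 from the prior, and no pair of arrays was identical (0 pairs).

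The genes to follow and the lists were chosen with earlier results of these data known. Partner genes to name were those called in their list, up to 3 higher and 3 lower by p per list and comparison, and genes most alike were the 3 of highest Pearson r, for Htt and for the member of smallest F-test p. Alternatives were 2 other filters, 3 scalings, a robust prior with intensity trend, weights per array, a block on the replicate number, only the arrays of the 2 groups, and leaving out each array. Those for partner genes were chosen after seeing the data. Only for compound 3 against non-induced cells did every same-numbered pair of arrays correlate over 0.1 (0.109 to 0.406). The limma step was tested on simulated data. Sequences are RefSeq's, searched with Python 3.11.15, and figures used matplotlib 3.10.9.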

Additional observations from a re-analysis of the deposited data

How the results depend on the processing

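Under 21 alternatives (9 other settings and 12 arrays left out), the 48 differences of the 8 genes gave 1008 values. Of these 1 lost its call, 5 gained one, 39 changed sign (all uncalled) and 963 did none of this. Among the 963 are 21 of Pacsin1 for induction (-0.038 to 0.052), whose main value, 0, had no sign. For compound 3 against non-induced cells Hap1 and Hip1r passed in all 21. For compound 6 against non-induced cells 1 gene passed, and 0 to 1 with an array left out (0 without non-induced array 3). For induction 0 genes passed, and 1 (Hip1r) with the filter at the 75th percentile, median scaling, cyclic loess or array weights. With an array left out 0 to 1 passed (1 without induced DMSO array 3, adjusted p = 0.0403). In the F-test 2 passed, 0 with no filter, 1 with the replicate number as a block and 0 to 2 with an array left out. Same-numbered arrays of different groups correlated at -0.169 to 0.452 in their deviations, over 0.1 in 10 of 18 pairs, and differently numbered ones at -0.464 to 0.420. All array 1 pairs were over 0.1, and in 1 of 6 pairs of groups (compound 3 and non-induced) every same-numbered pair was, so the numbers were not taken to pair the samples across the study. With the block, both calls of compound 3 against non-induced cells held (adjusted p = 0.0148 for Hap1 and 0.00989 for Hip1r in limma). Of the counts of the 8 genes only that of the F-test changed, to 1 (Hip1r). For either compound against DMSO and compound 6 against compound 3, 0 passed in every alternative in limma.

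With quantile normalisation the uncalled values that turned sign were 0.015 for Hap1 (induction), -0.0017 for Pacsin1 (compound 6 against DMSO), -0.0025 for Tbp (compound 3 against non-induced cells) and -0.0089 for Pacsin1 (compound 6 against non-induced cells). With cyclic loess those that turned sign were 0.000279 for Hap1 (induction) and -0.014 for Pacsin1 (compound 6 against non-induced cells). With array weights the uncalled values that turned sign were 0.016 for Hip1 (induction), -0.038 for Crebbp (compound 3 against DMSO) and -0.0089 for Pacsin1 (compound 6 against DMSO). With median scaling the uncalled values that turned sign were -0.0067 for Crebbp (induction), 0.0033 for Hip1 (compound 3 against DMSO), 0.013 for Sp1 (compound 3 against DMSO) and 0.0067 for Htt (compound 6 against DMSO).

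With an array left out, induction gave -0.05 to 0.005 for Hap1, -0.04 to 0.05 for Hip1, -0.023 to 0.077 for Crebbp and -0.087 to 0.0083 for Tbp. Without 1 array, compound 3 against DMSO gave -0.033 to 0.18 for Htt, -0.073 to 0.022 for Hip1, -0.013 to 0.093 for Crebbp and -0.07 to 0.035 for Sp1. Omission of 1 array for compound 6 against DMSO gave -0.072 to 0.023 for Htt, -0.048 to 0.042 for Pacsin1 and -0.02 to 0.085 for Sp1. Leave-one-out fits for compound 6 against compound 3 gave -0.20 to 0.013 for Htt, -0.013 to 0.022 for Hip1r and -0.017 to 0.053 for Tbp. Array omission for compound 3 against non-induced cells gave -0.06 to 0.015 for Hip1 and -0.0067 to 0.07 for Tbp. Without 1 array, compound 6 against non-induced cells gave -0.028 to 0.032 for Pacsin1. The cause of these turns was not tested.

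Over all features the calls for induction numbered 3120, with 1573 to 5515 in alternatives other than array omission, those for compound 3 against DMSO 8 (2 to 26), for compound 6 against DMSO 1 (0 to 3), for compound 6 against compound 3 15 (1 to 133), for compound 3 against non-induced cells 5216 (3903 to 6892) and for compound 6 against non-induced cells 2644 (1623 to 4274). With an array left out the counts were 1815 (without induced DMSO array 2) to 5165 (without induced DMSO array 1) for induction, 1210 (without non-induced array 3) to 2938 for compound 6 and 3465 (without non-induced array 3) to 5477 for compound 3 against non-induced cells, 2 to 6 for compound 3 and 0 to 1 for compound 6 against DMSO, and 1 to 9 for compound 6 against compound 3. The shares of all features set beside the genes move with these counts. Partner genes called numbered 10 for induction (4 with the arrays of the 2 groups alone, 18 with array weights), 17 for compound 3 (11 with no filter, 25 with array weights) and 11 for compound 6 (3 without non-induced array 3, 15 with array weights), the last 2 against non-induced cells. Each gene has 1 feature, whose value is the one reported. With 3 arrays a group, the standard error of a difference was between 0.0465 (Hip1r) and 0.10 (Htt). The smallest difference that could pass also depends on the adjustment within each comparison. Hap1 at -0.21 ± 0.05 did not pass for compound 3 against DMSO (limma adjusted p = 0.269).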
